A study of Sus scrofa with 6 samples.

Results

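The miR-30 family comprises microRNAs (miRNAs, short RNAs that guide the repression of messenger RNAs) cut from hairpin precursors, each of which can give a product from its 5p and its 3p arm. The family was taken by name from the deposited tables and has 8 members, 5 from 5p arms and 3 from 3p arms, of 326 listed mature pig miRNAs. It was measured by small RNA sequencing in denuded oocytes, freed of their cumulus cells, from prepubertal gilts whose ovaries came from an abattoir. Large-follicle oocytes (LO, 3 libraries) came from follicles 3 to 6 mm across, drawn through a 20-gauge needle into a 10 mL syringe. Small-follicle oocytes (SO, 3 libraries) came from follicles below 2 mm, drawn through a 23-gauge needle into a 5 mL syringe. No other treatment or genotype is given in the labels, and the needle and syringe cannot be told apart from follicle size. The series title relates the profile to oocyte developmental competence. The numbers of animals and oocytes per library are not stated in the sources used here, so p-values measure the spread between these libraries.

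An Argonaute protein usually keeps 1 strand of the duplex cut from a precursor, the guide, and the partner strand is mostly discarded. The guide finds its targets mainly by bases 2 to 8, the seed, so miRNAs with the same seed can share many targets. In mammalian cells the 5p products of the miR-30 family are best known as repressors of genes of epithelial-mesenchymal transition, fibrosis and autophagy, and are abundant in many epithelia.

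The member sequences are shown because they define the seed groups of the family. They are the DNA letters of the deposited tables, named as there (ssc stands for the pig, and the prefix is dropped hereafter), 5′ to 3′, with T standing for U and the seed in capitals. The 5p products come first.
ssc-miR-30a-5p: tGTAAACAtcctcgactggaag
ssc-miR-30d: tGTAAACAtccccgactggaagct
ssc-miR-30e-5p: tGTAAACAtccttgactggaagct
ssc-miR-30c-5p: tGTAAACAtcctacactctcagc
ssc-miR-30b-5p: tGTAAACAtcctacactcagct
The 3p products are shown for the contrast in seed with their 5p partners.
ssc-miR-30a-3p: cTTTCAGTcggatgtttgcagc
ssc-miR-30e-3p: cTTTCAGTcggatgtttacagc
ssc-miR-30c-3p: cTGGGAGAaggctgtttactct

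All 5 of the 5p members carry the seed GTAAACA, and no other listed miRNA does. They begin with T, whereas the 3p members begin with C. Outside the seed the 5p members form 2 sets by sequence. Counting from 1 at the 5′ end, miR-30d differs from miR-30a-5p by T12C alone over the 22 shared positions, and miR-30e-5p by C13T alone. miR-30c-5p differs from miR-30a-5p at 5 positions and miR-30b-5p at 7, all from position 13 onward. The first set is called a/d/e and the second b/c below.

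The 3p members have other seeds. miR-30a-3p and miR-30e-3p share TTTCAGT, again with no other listed miRNA, and differ by G18A alone. miR-30c-3p has the seed TGGGAGA, which it shares with miR-30c-1-3p, a listed name outside the 8 members. Reads of names that differ by 1 base may have been shared between them in the authors' counting. miR-30d is listed without an arm, and its sequence places it with the 5p products.

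The RefSeq gene table for Sscrofa11.1, used for names and neighbours only, holds 6 miR-30 loci that lie as 3 pairs of nearest miRNA genes. MIR30A neighbours MIR30C-2, MIR30B neighbours MIR30D, and MIR30C-1 neighbours MIR30E within NFYC, which encodes a subunit of the transcription factor NF-Y. Each pair therefore joins an a/d/e locus to a b/c locus. Mature miR-30c-5p can come from either miR-30c locus.

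The deposited values behaved as reads per 1000000 of an author-set library total (RPM), and whole reads were recovered from them. Listed miRNA reads numbered 7755 to 42541 in LO libraries and 44964 to 55230 in SO libraries, with LO replicate 2 the shallowest, so low values are coarser in LO, where 1 read was worth 0.702 to 2.17 RPM, against 0.457 to 0.522 RPM in SO. The 8 members took 375 to 1957 reads in LO and 2144 to 2986 reads in SO. In LO replicate 2, listed miRNAs took 7755 of 461505 total reads. They took 17464 of 575850 in LO replicate 1 and 42541 of 1424130 in LO replicate 3. The RPM of listed miRNAs as a whole was therefore lower in LO replicate 2. A mature miRNA is read whole, so RPM was not divided by length. Fixed markers of granulosa and cumulus cells, the cells that surround the oocyte, took 1.93 to 3.82% of listed reads in LO and 1.68 to 2.55% in SO. All 8 names had reads, but miR-132, miR-212, miR-224 and miR-383 had only 0 to 3 in each library. That share came almost wholly from miR-21, miR-31 and miR-202. Theca, stroma and smooth muscle markers (8 of 9 names with reads, miR-214 at 0) took 0.252 to 0.438% in LO and 0.194 to 0.349% in SO. Endothelial markers (2 of 2 names) took 0.0306 to 0.0645% in LO and 0.0137 to 0.0489% in SO, and erythroid markers (3 of 3) 0.0141 to 0.0258% in LO and 0.00667 to 0.0157% in SO. Leukocyte markers (3 of 3 listed names, miR-223 not analysed here) took 0.00940 to 0.0387% in LO and 0.00667 to 0.194% in SO. The 0.194% was SO replicate 1, with 80 reads of miR-142-3p and 22 of miR-142-5p. SO replicates 2 and 3 were at 0.00667 and 0.00785%. No miRNA was fixed here as a marker of the oocyte itself, so that label was not checked. In libraries of whole oocytes, fewer contributing cells and less RNA per cell cannot be told apart.

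The first comparison was between members. miR-30a-5p, known in human cells to repress the autophagy gene BECN1, led the family in every library. It had 610, 488 and 803 RPM in the LO libraries, against 976, 639 and 764 RPM in the SO libraries, in the order of replicates 1 to 3 as in all such lists here. Its rank among the 326 names ran from 10 in LO replicate 1 to 5 in SO replicate 3, and it was 7th by mean RPM over the 6 libraries. LO replicate 2 was the lowest and SO replicate 1 the highest, and the groups overlapped.

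miR-30d, which has been described in human endometrial fluid, was second in 5 of 6 libraries. It had 259, 143 and 238 RPM in LO, against 251, 244 and 224 RPM in SO. The SO libraries lay close together (240 ± 13.7 RPM, SD, n = 3). In RPM, LO replicate 2 was the single low library (LO 213 ± 61.7 RPM, SD, n = 3). Listed miRNAs as a whole were also low in that library.

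miR-30e-5p, made beside miR-30c-1 inside NFYC, had 299, 104 and 194 RPM in LO, against 191, 145 and 90.0 RPM in SO. It was the most uneven of the abundant members, with LO replicate 1 at the top and SO replicate 3 at the bottom, and it exceeded miR-30d only in LO replicate 1.

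The b/c set was lower. miR-30c-5p had 66.0, 39.0 and 77.9 RPM in LO, against 79.9, 46.4 and 35.2 RPM in SO. miR-30b-5p had 15.6, 6.50 and 16.9 RPM in LO, against 17.8, 13.5 and 6.86 RPM in SO. Both had their lowest LO value in replicate 2 and their lowest SO value in replicate 3, and both overlapped between the groups.

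Among the 3p products, usually the discarded strands, miR-30a-3p had 17.4, 30.3 and 28.1 RPM in LO, against 33.9, 21.4 and 18.3 RPM in SO. miR-30e-3p had 6.95, 2.17 and 16.2 RPM in LO, against 8.88, 7.82 and 9.14 RPM in SO. miR-30e-3p was thus spread over a wide range in LO, where it rested on 4, 1 and 23 reads, and over a narrow range in SO, where it rested on 17, 15 and 20. miR-30c-3p had 1 read in LO replicate 1 and 1 read in SO replicate 1, and 0 reads in the other libraries.

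**Figure D1:**
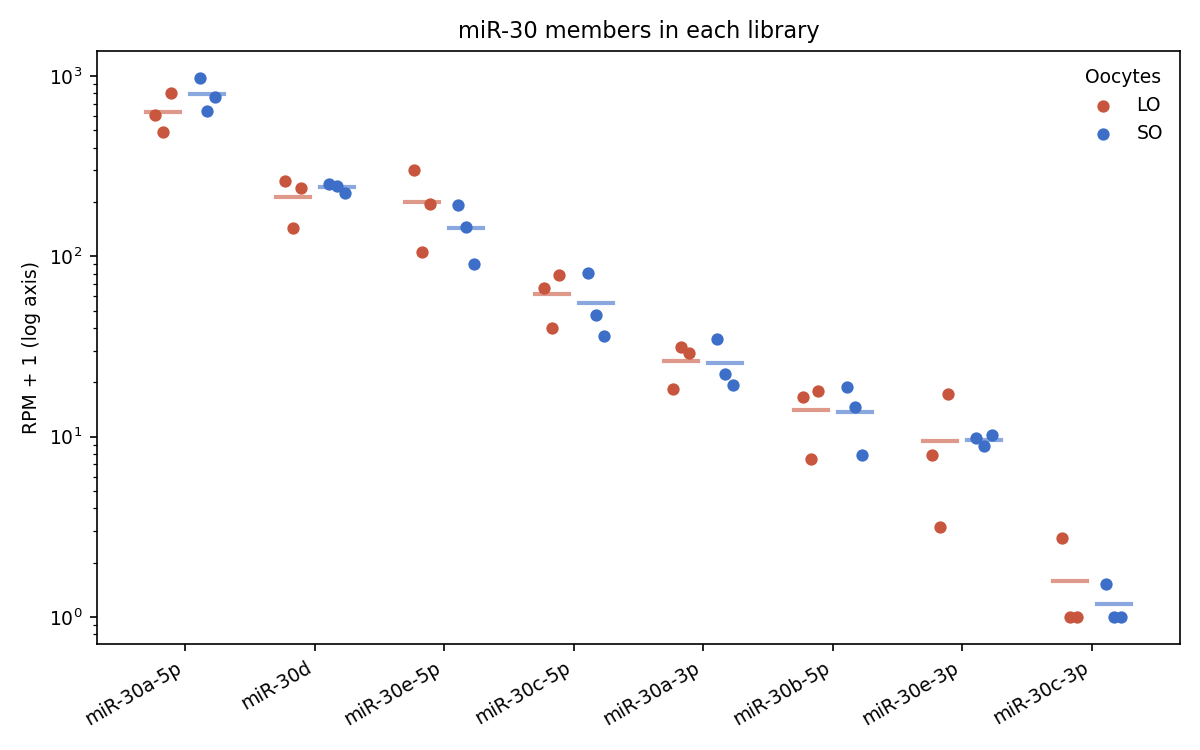
Level of each miR-30 member in each library, as RPM + 1 on a log axis, with members in order of mean RPM over the 6 libraries. Points are libraries (LO left, SO right) and bars are group means. The order runs from miR-30a-5p, at 488 to 803 RPM in LO and 639 to 976 RPM in SO, to miR-30c-3p, with reads in 2 of 6 libraries. On this RPM scale the groups overlap for every member.

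By mean RPM over the 6 libraries the order was miR-30a-5p, miR-30d, miR-30e-5p, miR-30c-5p, miR-30a-3p, miR-30b-5p, miR-30e-3p and miR-30c-3p. Neighbours in this order were compared within libraries by an exact two-sided sign-flip permutation test of the log2 ratio of RPM + 1, with adjustment over the 7 neighbouring pairs; the smallest p that 6 libraries allow is 0.03125, which becomes 0.04375 after adjustment. The pairs and their direction were chosen by level in these same 6 libraries, so the p-values are no independent evidence for the order. Of the 7 steps, 5 held in all 6 libraries (exact permutation p = 0.03125, adjusted 0.04375 for each). They were miR-30a-5p over miR-30d (mean log2 ratio 1.64 ± 0.27, SD, n = 6, exact test), miR-30e-5p over miR-30c-5p (1.51 ± 0.34), miR-30c-5p over miR-30a-3p (1.14 ± 0.51), miR-30a-3p over miR-30b-5p (0.95 ± 0.66) and miR-30e-3p over miR-30c-3p (2.75 ± 1.0). The last ratio depends on the 1 RPM added, since miR-30c-3p was at 0 in 4 libraries.

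The other two steps did not pass the test. miR-30d over miR-30e-5p averaged 0.50 ± 0.50 (SD) on the log2 scale and held in 5 of 6 libraries (exact permutation p = 0.0625, adjusted 0.0729). miR-30b-5p over miR-30e-3p averaged 0.61 ± 0.63 (SD) and also held in 5 of 6 (exact permutation p = 0.09375, adjusted 0.09375). The step of miR-30a-3p over miR-30b-5p puts a product of the minor arm above a 5p member of its own family: miR-30a-3p had 10, 14 and 40 reads in LO and 65, 41 and 40 in SO, against 9, 3 and 24 in LO and 34, 26 and 15 in SO for miR-30b-5p. In LO replicate 1 that order rests on a single read.

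miR-30a-5p gave the largest part of the 5p reads in every library. Its share was 57.2% ± 7.37 in LO and 63.8% ± 4.76 in SO, and that of miR-30d 19.0% ± 1.52 in LO and 19.7% ± 2.98 in SO (n = 3 libraries a group, SD). miR-30c-5p held 5.38% ± 0.438 in LO and 4.22% ± 1.06 in SO, and miR-30b-5p 1.12% ± 0.246 in LO and 1.01% ± 0.346 in SO. The b/c set together held 6.54, 5.83 and 7.13% in the 3 LO libraries, against 6.44, 5.51 and 3.75% in the 3 SO libraries, in order of replicate number. SO replicate 3 was the low library, with a 95% exact Clopper-Pearson interval of 3.04 to 4.58%, and these intervals cover counting error only.

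miR-30e-5p was the member whose share varied most relative to its mean (14.3% ± 5.23 of the 5p reads, SD, n = 6). It held 23.9% of the 5p reads in LO replicate 1 (95% exact interval 20.8 to 27.2%), 13.3% in LO replicate 2 (10.0 to 17.3%) and 14.6% in LO replicate 3 (13.0 to 16.2%), against 12.6% in SO replicate 1 (11.4 to 13.9%), 13.3% in SO replicate 2 (11.9 to 14.8%) and 8.04% in SO replicate 3 (6.99 to 9.19%). LO replicate 1 stood above and SO replicate 3 below the other four libraries by more than counting error. The summed granulosa and cumulus marker share was likewise highest in LO replicate 1 (3.82%) and lowest in SO replicate 3 (1.68%). It was 1.93 to 2.56% in the others. Single markers differed at the low end. By share, miR-31 was lowest in SO replicate 3 (254 of 50936 listed reads, against 68 of 7755 in LO replicate 2). miR-21 (47 of 7755, against 365 of 50936) and miR-202-5p (28 of 7755, against 219 of 50936) were lowest in LO replicate 2. The match of the summed share was seen after the values were known, and the part of these markers in the miR-30e-5p share was not tested.

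**Figure D2:**
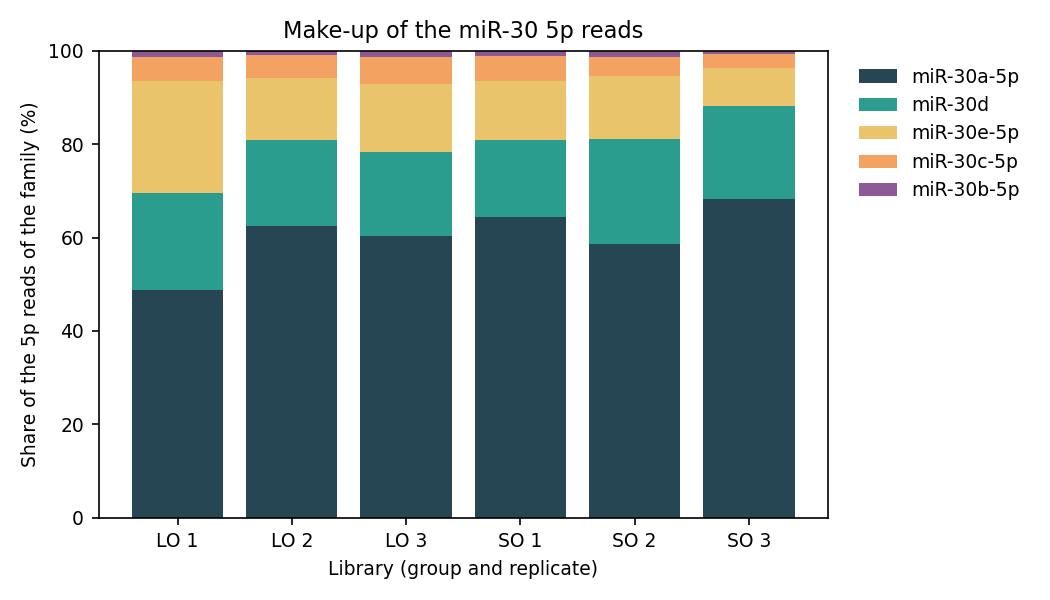
Make-up of the 5p reads of the miR-30 family in each library, in percent of those reads. miR-30a-5p is the largest part everywhere, from 48.8% in LO replicate 1 to 68.2% in SO replicate 3, and miR-30e-5p ranges from 23.9% to 8.04% in the same libraries.

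Members made from neighbouring loci differed in level. miR-30d was 14.1 to 22.0 times miR-30b-5p in LO and 14.1 to 32.7 times in SO; MIR30B and MIR30D are nearest miRNA neighbours. miR-30e-5p was 2.49 to 4.53 times miR-30c-5p in LO and 2.39 to 3.12 times in SO, and miR-30a-5p was 9.24 to 12.5 times miR-30c-5p in LO and 12.2 to 21.7 times in SO. The member of the a/d/e set was the higher of its pair in every library.

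The second comparison was between the arms of a precursor. For miR-30c the 5p reads can come from either miR-30c locus, and miR-30c-1-3p is listed apart from miR-30c-3p. The miR-30c values below therefore do not give the arm balance of a single precursor. The 5p product exceeded the 3p product in all 6 libraries for each of miR-30a, miR-30c and miR-30e (exact two-sided sign-flip permutation p = 0.03125 for each, adjusted over the 3 precursors 0.03125, the smallest that 6 libraries allow). The mean log2 ratio of 5p to 3p, with 1 RPM added to each, was 4.79 ± 0.45 for miR-30a, 5.45 ± 0.57 for miR-30c and 4.22 ± 0.82 for miR-30e (SD over libraries). The miR-30c value is set by the 1 RPM added, since 4 libraries had 0 reads of miR-30c-3p.

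The 3p arm held 2.77% of miR-30a reads in LO replicate 1 (95% exact interval 1.34 to 5.04%), 5.86% in LO replicate 2 (3.24 to 9.63%) and 3.38% in LO replicate 3 (2.42 to 4.57%), against 3.36% in SO replicate 1 (2.60 to 4.26%), 3.24% in SO replicate 2 (2.33 to 4.36%) and 2.34% in SO replicate 3 (1.68 to 3.17%). All 6 intervals for miR-30a overlap except those of LO replicate 2 and SO replicate 3. For miR-30e the 3p arm held 2.27% in LO replicate 1 (0.623 to 5.72%), 2.04% in LO replicate 2 (0.0517 to 10.9%) and 7.69% in LO replicate 3 (4.94 to 11.3%), against 4.44% in SO replicate 1 (2.61 to 7.01%), 5.12% in SO replicate 2 (2.89 to 8.30%) and 9.22% in SO replicate 3 (5.72 to 13.9%). The highest miR-30e shares were those of LO replicate 3 and SO replicate 3, and the groups overlapped.

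Over the 6 libraries together, the 3p share was 3.14% for miR-30a (210 of 6697 reads; 95% exact interval 2.73 to 3.58%), 5.65% for miR-30e (80 of 1417; 4.50 to 6.98%) and 0.410% for miR-30c (2 of 488; 0.0497 to 1.47%). The miR-30c share was thus lower than the other two by more than counting error. miR-30b-3p and miR-30c-1-3p had 0 of 218890 listed reads, which allows a share of up to 0.00137%. Beside the 111 reads of miR-30b-5p, that 0 allows up to 2.70% as many 3p reads, so a miR-30b-3p share as low as that of miR-30c would not have been detectable at this depth.

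Of all listed precursors, 28 had both arms named with at least 100 reads over the 6 libraries, of which 16 were led by their 5p arm and 12 by their 3p arm. By 5p share, miR-30b was 2nd (100%), miR-30c 3rd (99.6%), miR-30a 9th (96.9%) and miR-30e 11th (94.4%). The major arm held a median of 96.9% over the 28. On reads of all 6 libraries together, miR-30c was more one-sided than the median, miR-30a was near it and miR-30e was less one-sided. In single libraries the 5p share ran from 90.8 to 98.0% for miR-30e and from 94.1 to 97.7% for miR-30a, on both sides of that median. The 100% of miR-30b rests on 111 reads, whose 95% exact interval allows a 3p share of up to 3.27%, so it could not be told apart from the median.

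**Figure D3:**
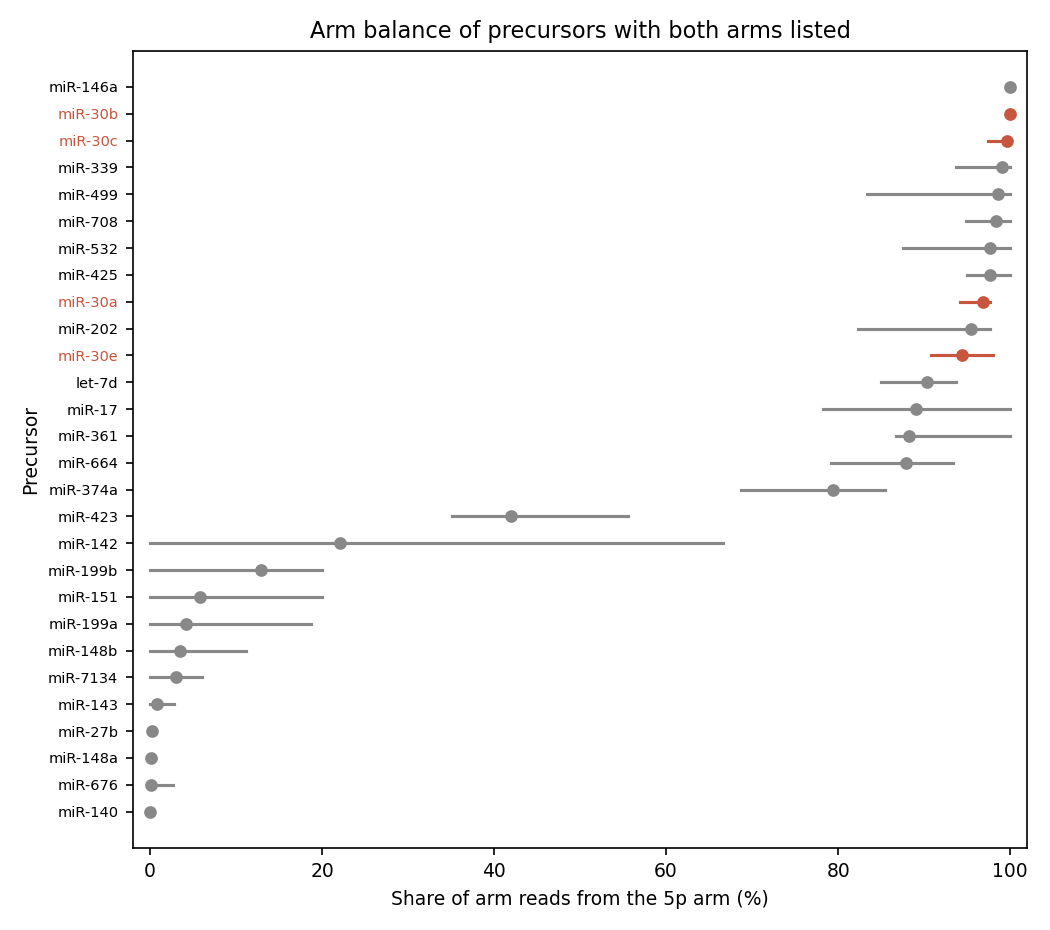
Share of the arm reads that came from the 5p arm, in percent, for the 28 precursors with at least 100 reads. Points are all 6 libraries together and lines run from the lowest to the highest library; the 4 miR-30 precursors lie between 94.4% and 100%, with narrower ranges for miR-30a (94.1 to 97.7%) than for miR-30e (90.8 to 98.0%).

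Whether the arm balance differed with follicle size was tested by limma on log2 ratios of 5p over 3p, adding 0.5 to each read count, taking precursors whose arms each averaged 10 reads or more. Of 5 such precursors, 0 passed a false discovery rate (FDR) of 0.05 (0%), and 0 (0%) had an unadjusted p under 0.05. The ratio of miR-30a averaged 4.61 ± 0.58 in LO and 5.03 ± 0.29 in SO (SD of the log2 ratio over 3 libraries a group), a difference of -0.41 (95% limits -1.81 to 0.98, limma FDR 0.763). That of miR-30e averaged 4.61 ± 0.92 in LO and 3.94 ± 0.59 in SO, a difference of 0.67 (95% limits -0.73 to 2.07, limma FDR 0.763). Leaving out single libraries gave -0.64 (without LO replicate 1) to -0.09 (without LO replicate 2) for miR-30a and 0.33 (without SO replicate 3) to 1.20 (without LO replicate 3) for miR-30e. The miR-30a difference was also -0.25 without SO replicate 3, and that of miR-30e 0.34 without LO replicate 1. The fit shared its estimate of spread among the 5 precursors, so the 95% limits above are not set by miR-30a or miR-30e alone. By that fit, neither difference could be told apart from 0 with 3 libraries a group. miR-30c had too few 3p reads for this test.

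The third comparison set LO against SO for each member. Over all 104 miRNAs with enough reads, 0 passed FDR 0.05 by limma on log2(RPM + 1) (0%), and 7 of the 8 miR-30 members were among the 104. None of those 7 passed, and none had an unadjusted limma p under 0.05, a level that 3.85% of the 104 reached. On the deposited scaling all 8 members had overlapping group ranges, against 3.85% of the 104 with ranges apart. miR-30d took 149 of 17464, 66 of 7755 and 339 of 42541 listed reads in LO. In SO it took 480 of 55230, 469 of 44964 and 491 of 50936. As a share of listed reads, its LO libraries thus all lay below its SO libraries, and limma on that scaling gave it an FDR of 0.654. This separation was not particular to miR-30d. By share of listed reads, miR-10b was likewise lower in every LO library than in any SO library, and miR-29a was higher. Both had overlapping ranges on the deposited scaling. How many of the 104 had ranges apart by share of listed reads was not counted, so the 3.85% is no background for miR-30d here. miR-30c-3p, with 1 read in each group, was not tested.

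The LO mean of miR-30a-5p was 633 ± 159 RPM, beside an SO mean of 793 ± 171 RPM (n = 3 libraries a group, SD); its log2 fold change was -0.33 with 95% limits of -1.14 and 0.48 (SE 0.41, limma FDR 0.780). miR-30d gave -0.21 with limits of -1.14 and 0.72 (SE 0.47, limma FDR 0.861). For miR-30e-5p the LO mean was 199 ± 97.4 RPM and the SO mean 142 ± 50.6 RPM, with a log2 fold change of 0.42 and limits of -0.55 and 1.39 (SE 0.49, limma FDR 0.780). These limits come from a fit that shares its estimate of spread among miRNAs of like abundance.

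These values move with single libraries of both groups. The miR-30a-5p value was -0.16 without LO replicate 2, -0.52 without LO replicate 3 and -0.17 without SO replicate 1, and that of miR-30d was 0.05 without LO replicate 2. For miR-30e-5p, leaving out LO replicate 1 gave 0.07 and leaving out SO replicate 3 gave 0.13; these are the libraries with its highest and lowest share of the 5p reads. Leaving out SO replicate 1 gave 0.67 and leaving out LO replicate 2 gave 0.82, where its unadjusted limma p was 0.0291 and its FDR 0.106. The 4 lower members had log2 fold changes of 0.20 for miR-30c-5p (SE 0.56), 0.05 for miR-30a-3p (SE 0.61), 0.02 for miR-30b-5p (SE 0.68) and -0.34 for miR-30e-3p (SE 0.74). Each of these differences is smaller than its SE.

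**Figure D4:**
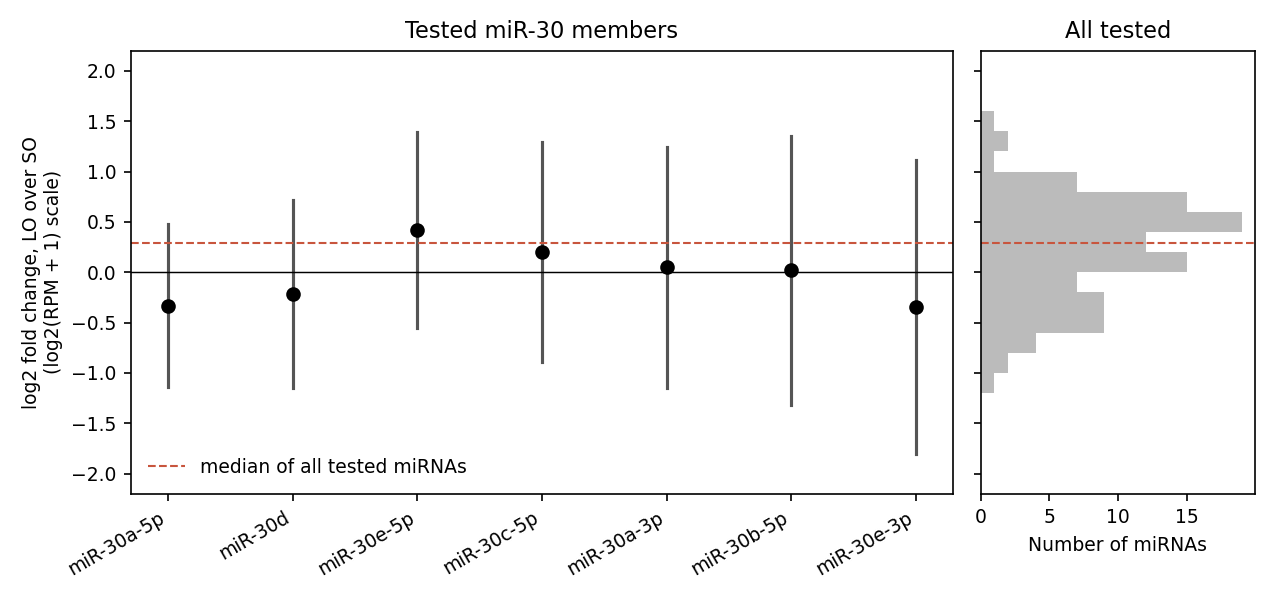
Log2 fold change of LO over SO for the 7 tested miR-30 members, with 95% limits from limma on log2(RPM + 1), beside the distribution over all 104 tested miRNAs. Every interval includes 0, and 6 of the 7 points lie below the dashed median of all tested miRNAs, 0.29.

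Directions depended on the scaling. On the deposited scaling 4 of the 7 tested members had higher means in LO and 3 lower, beside 69.2% of all tested miRNAs with a fold change above 0, and their median log2 fold change was 0.02, against 0.29 over all 104. With TMM scaling on log2 CPM the median over all 104 was 0.05 and that of the 7 members -0.22. On that scaling 1 member was higher (miR-30e-5p) and 6 lower, beside 52.9% of all tested miRNAs with a fold change above 0. Relative to the median of all tested miRNAs the members' median was -0.27 on the deposited scaling and -0.26 with TMM, and 6 of the 7 lay below it in both. On the deposited scaling this offset was -0.09 without LO replicate 1, with 4 of 7 members below, and -0.12 without SO replicate 1, with 5 of 7 below; without any other single library it lay between -0.39 and -0.34, with 6 or 7 below. A median below that of all miRNAs describes these libraries and was given no test.

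The count models on recovered reads gave no call for a member either. edgeR's quasi-likelihood test with TMM called 2 of 104 miRNAs (1.92%), neither of them a member. No member had an unadjusted edgeR p under 0.05, a level that 13 of the 104 reached. The same edgeR test gave miR-30a-5p a log2 fold change of -0.53 (unadjusted p 0.0571, FDR 0.349). For miR-30d it gave -0.46 (unadjusted edgeR p 0.0978, FDR 0.375). DESeq2 called 0 of 242 miRNAs (0%), 9 of which had an unadjusted p under 0.05. It gave miR-30d the only member p under 0.05, at an unadjusted 0.0338 and an adjusted DESeq2 p of 0.924, with a log2 fold change of -0.51.

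The family as a whole held between 4.20% and 5.41% of the profile. Its 8 members took 4.20% of listed miRNA reads in LO replicate 1 (95% exact interval 3.91 to 4.51%), 4.84% in LO replicate 2 (4.37 to 5.34%) and 4.60% in LO replicate 3 (4.40 to 4.80%), against 5.41% in SO replicate 1 (5.22 to 5.60%), 4.77% in SO replicate 2 (4.57 to 4.97%) and 4.93% in SO replicate 3 (4.74 to 5.12%). The groups overlapped, at LO replicate 2 and SO replicate 2. The mean share was 4.55% ± 0.320 for LO and 5.03% ± 0.332 for SO (n = 3 libraries a group, SD). The 3p members together took 3.09% ± 0.985 of the family's reads in LO and 2.59% ± 0.196 in SO.

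Other multi-member families gave context. Members of the let-7 family, which accumulate as cells differentiate, took 11.6% ± 3.94 of listed reads in LO and 8.09% ± 1.03 in SO. The miR-15 and miR-16 family, regulators of cell cycle genes, took 13.4% ± 0.626 in LO and 12.5% ± 0.836 in SO, and the miR-29 family, which targets collagens, took 0.521% ± 0.179 in LO and 0.318% ± 0.0381 in SO (SD over 3 libraries a group). On the deposited scaling the log2 fold change was above 0 for 4 of 7 tested miR-30 members, 7 of 7 let-7 members, 4 of 4 from the family of miR-15 and miR-16 and 3 of 3 of the miR-29 family, and with TMM on log2 CPM for 1 of 7, 5 of 7, 2 of 4 and 3 of 3 in the same order. Over all 104 tested miRNAs, 69.2% were above 0 on the deposited scaling and 52.9% with TMM on log2 CPM. No member of these 4 families passed FDR 0.05 by limma, and whether the families differ from each other or from all tested miRNAs was not tested. The leading member held 60.6% of the reads of the miR-30 family (miR-30a-5p), 44.6% of let-7 (let-7a), 96.8% in the family of miR-15 and miR-16 (miR-16) and 42.9% of miR-29 (miR-29c).

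The members did not vary over the libraries in the same way. Likeness was measured as the root mean square difference of 2 profiles of log2(RPM + 1) over the 6 libraries, each centred on its own mean, so that 0 means the same profile. Between the 21 pairs of tested members it ran from 0.22 to 0.85, with a median of 0.47. The most alike were miR-30b-5p and miR-30c-5p (0.22), followed by miR-30a-5p and miR-30d (0.25). The least alike were miR-30a-3p and miR-30e-3p (0.85), which differ by 1 base, although miR-30e-3p had few reads. miR-30a-5p lay nearer to its own 3p arm (0.41) than to miR-30e-5p (0.60), which also differs from it by 1 base. In LO replicates 1 and 2 miR-30a-3p had only 10 and 14 reads, and miR-30b-5p 9 and 3. Counting error therefore enters the differences that involve them, and its part was not tested.

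The miRNAs outside the family closest to miR-30a-5p were miR-146a-5p, an immune-regulatory miRNA (0.10), miR-205, an epithelial miRNA and the most abundant in these libraries (0.13), and miR-183, a sensory-lineage miRNA (0.15), beside a median of 0.62 over the 97 tested miRNAs outside the family. miR-146a-5p had 146, 128 and 235 RPM in LO, against 238, 159 and 210 RPM in SO. The same libraries were high and low as for miR-30a-5p, with LO replicate 2 lowest and SO replicate 1 highest. The closest to miR-30d were miR-361-5p (0.12), miR-125b (0.14) and miR-320 (0.17), beside a median of 0.49. miR-361-5p had 67.7, 32.5 and 47.0 RPM in LO, against 54.8, 58.9 and 48.4 RPM in SO. These profiles share the same 6 libraries and their scaling, and the likeness is a description with no test.

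**Figure D5:**
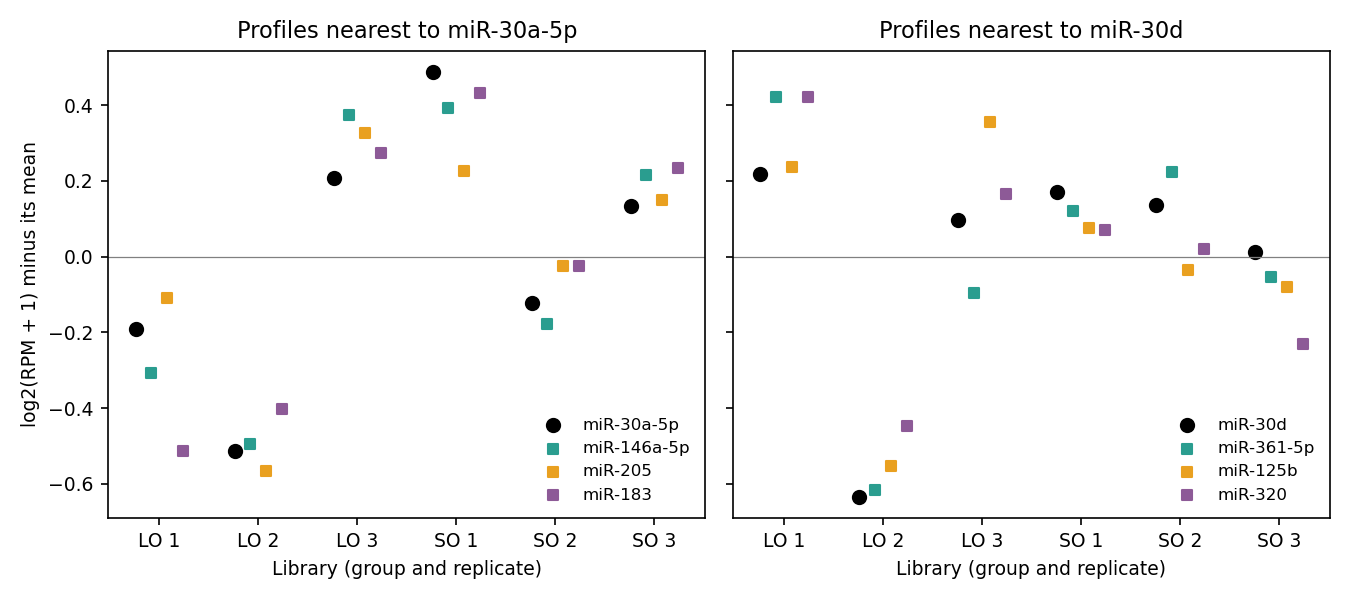
Profiles of miR-30a-5p (left) and miR-30d (right) over the 6 libraries with the 3 tested miRNAs outside the family nearest to each, as log2(RPM + 1) minus the mean of each miRNA. LO replicate 2 is the lowest library for both members, and the nearest profiles differ from them by a root mean square of 0.10 to 0.15 on the left and 0.12 to 0.17 on the right.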

How the data were processed

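Small RNA from denuded oocytes was isolated with mirVana and made into libraries with the QIAseq miRNA kit, per the labels' protocols. Groups and replicate numbers came from the sample titles. Bowtie2 2.2.2, cutadapt, bcl2fastq, edgeR and the build Sscrofa10.2 are named, without their roles, in the submitters' processing notes. The deposited values are headed TPM, but each was a whole multiple of 1 step per library whatever the sequence length, so the authors' values were read as RPM; 100% of the values above 0 came out as whole reads within a tolerance of 0.01 read. The recovered totals were 461505 to 1424130 reads in LO and 1915218 to 2187987 in SO. The sources used here do not say whether reads were collapsed by molecular identifier. Preference of the library preparation for some sequences was not tested, so levels of different miRNAs are levels of reads.

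The fixed design named edgeR for counts and limma for normalized values. The deposited values are normalized, so limma was taken as the main test, although whole reads, for which the design named edgeR, were recovered. limma 3.58.1 (R 4.3.3) was run with an intensity trend on log2(RPM + 1) and group as the only term. It covered the 104 miRNAs passing filterByExpr on recovered reads, with Benjamini-Hochberg adjustment over all 104. edgeR 4.0.16 and DESeq2 1.42.0 on recovered reads were alternatives, beside pseudocounts, filters, scalings, fits without single libraries and a block for replicate number. Exact tests used scipy 1.17.1. The fitting code was tested on simulated data. Replicates of a group differed by more than sampling noise (chi-square per degree of freedom 2.71 to 16.8). All 8 members are named, with listed miRNAs sharing a member's seed and the 3 nearest profiles to each of the 2 most abundant members. Members and lists were chosen with earlier results of these data known. The sequences are those of the deposited tables.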

Additional observations from a re-analysis of the deposited data

How the results depend on the processing

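No miR-30 member passed FDR 0.05 in any of 16 alternative settings. The number of all miRNAs past it was 0 except for 2 in edgeR with TMM, and ranged from 0 to 18 when single libraries were left out (18 without LO replicate 2). With limma on TMM-scaled log2 CPM, edgeR, DESeq2 and edgeR with the replicate block, the signs of 3 members turned: miR-30a-3p to -0.18, -0.18, -0.14 and -0.18, miR-30b-5p to -0.22, -0.22, -0.24 and -0.16, and miR-30c-5p to -0.039, -0.066, -0.085 and -0.043; all 4 use TMM or DESeq2 size factors, and the cause was not tested. Leaving out single libraries gave log2 fold changes of -0.52 to -0.16 for miR-30a-5p, 0.066 to 0.82 for miR-30e-5p, -0.13 to 0.30 for miR-30a-3p, -0.34 to 0.42 for miR-30b-5p, -0.055 to 0.52 for miR-30c-5p, -0.37 to 0.051 for miR-30d and -0.94 to 0.28 for miR-30e-3p, with a median over the members of -0.26 to 0.29. It gave 5p over 3p log2 ratios of 4.69 to 4.96 for miR-30a, 5.28 to 5.62 for miR-30c and 4.01 to 4.42 for miR-30e, where 5 libraries cannot give an exact p under 0.0625; the same limit ends the call of 5 neighbouring steps in level, and the mean ratio of all 7 steps stayed above 0. Of the listed reads without the most abundant miRNA, the family took 6.94% in LO and 8.30% in SO, because the denominator is smaller. Deviations of same-numbered libraries correlated at -0.34 to 0.08 over the tested miRNAs, against -0.29 to 0.43 for different numbers. This cannot decide whether same-numbered libraries were collected together. With the replicate block limma called 0 miRNAs (3 at an unadjusted p under 0.05) and gave miR-30a-5p an unchanged log2 fold change of -0.33 (FDR 0.853). The block left the arm differences at -0.41 for miR-30a (unadjusted limma p 0.406, FDR 0.533) and 0.67 for miR-30e (0.131, FDR 0.533). miR-30e-3p, miR-30b-5p and miR-30c-3p are limited by depth.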
